A study of Mus musculus with 14 samples.

Results

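ADAMTS proteases are secreted zinc metalloproteinases that carry thrombospondin repeats, and 9 of them were followed here in liver sinusoidal endothelial cells (LSECs), the fenestrated cells that line the capillaries of the liver. The 9 genes, Adamts1, Adamts2, Adamts4, Adamts5, Adamts9, Adamts10, Adamts12, Adamts13 and Adamts15, were chosen by name with earlier results of these data known. Their rows were found among 54524 genes through their Ensembl identifiers. LSECs came from male Balb/c mice of 10 to 12 weeks that were either left untreated (healthy, n = 4) or received 1 intraperitoneal injection of carbon tetrachloride (CCl4, 0.5 µL per g of body weight in mineral oil), a solvent that injures hepatocytes, and were taken 1 day (n = 2), 3 days (n = 4) or 7 days (n = 4) later. The methods give a somewhat older age range, and the controls were not injected. Cells from perfused livers were stained, and those positive for CD32 (Fcgr2b) and negative for F4/80, ultraviolet autofluorescence and propidium iodide were sorted, with CD45 as a further negative marker in the methods only. Day 1 has 2 mice because the RNA of the others was of low quality. The study asked how LSECs respond to acute liver injury over time.

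These enzymes are made as proenzymes, most are activated by furin-like convertases, and outside the cell many are held in the matrix by their thrombospondin repeats. ADAMTS1, ADAMTS4, ADAMTS5, ADAMTS9 and ADAMTS15 cleave large aggregating proteoglycans such as versican and aggrecan, ADAMTS2 removes the aminopropeptide of fibrillar procollagens, ADAMTS10 associates with fibrillin microfibrils, ADAMTS12 cleaves cartilage oligomeric matrix protein, and ADAMTS13 cuts von Willebrand factor. TIMP3 is the main tissue inhibitor of several of them, and LRP1 takes several up from the pericellular space. In the liver, stellate cells are the known source of ADAMTS13.

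The libraries held 46401496 to 103912264 counts on genes. Markers of LSECs were high in every library, with Stab2 between 947 and 2363 counts per 1000000 counts of the TMM-scaled library (CPM), but the sum of 10 such markers was lower in every injured library (9796 to 15178 CPM) than in every healthy one (16313 to 19678 CPM). Of these 10 genes, edgeR called 2 higher and 1 lower at day 1, 1 higher and 1 lower at day 3 and 0 at day 7. Genes of other cells were present too. The summed level of 11 myofibroblast and fibroblast markers lay between 48.8 and 73.3 CPM in healthy LSECs. A day after CCl4 it was 34.5 and 58.1 CPM, and it then ranged from 607 to 2246 CPM (day 3) and from 280 to 5813 CPM (day 7). That of 12 stellate cell markers was 263 to 375, 261 and 296, 426 to 654 and 296 to 883 CPM in the same order. In healthy LSECs most of it came from Ecm1, Nes and Bambi (means 151, 66.7 and 49.9 CPM), with Lrat and Des at 4.28 and 2.46 CPM. The paper lists Ecm1 and Reln, both among the 12, as enriched in healthy human LSECs. The median log2 fold change of the 12 genes was -0.55, 2.12 and 2.60 at days 1, 3 and 7, and 1 was called lower at day 1. Markers of monocytes and neutrophils (10 genes) summed to 558 to 1524 CPM in healthy LSECs, to 4548 and 8615 CPM a day after CCl4, and then ranged from 1431 to 13496 CPM (day 3) and from 4330 to 9839 CPM (day 7). Lyz2, at means of 760 and 7279 CPM, made up most of the healthy and day 7 sums. At days 1, 3 and 7, 4, 4 and 1 of these 10 genes were called higher and none lower. Hepatocyte markers (10 genes) summed to 276 to 496 CPM in healthy replicates 1 to 3 and to 11399.8 CPM in healthy replicate 4, which stood apart, to 39.1 and 186 CPM at day 1, 926 to 3157 CPM at day 3 and 816 to 6389 CPM at day 7. Cholangiocyte markers (5 genes) summed to 79.2 to 193, 229 and 301, 321 to 1178 and 598 to 5255 CPM in the same order. Most of this sum came from Sox9 and Spp1, as Krt19, Krt7 and Epcam had group means of 1.07 to 5.93 CPM. At days 1, 3 and 7, 0, 1 and 1 of the 5 genes were called, all higher, with median log2 fold changes of -0.49, 0.13 and 0.72. No marker of these lists was under 3 counts in every library. In sorted bulk cells, fewer cells of a type and less RNA per cell cannot be told apart.

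All 9 genes passed the filter on low counts. Against healthy LSECs, edgeR's quasi-likelihood test called 2 of the 9 genes changed at day 1, 4 at day 3 and 5 at day 7 (Benjamini-Hochberg adjusted p under 0.05 over 26626 genes), all of them higher. Of all tested genes, 4.06% were called at day 1, 7.19% at day 3 and 3.18% at day 7, and 2.42%, 4.62% and 2.19% were called higher. The median log2 fold change of the 9 genes was 0.94 at day 1, 1.43 at day 3 and 1.86 at day 7, against -0.03, 0.18 and 0.02 over all tested genes. Adamts4 and Adamts5 were called at all 3 times, Adamts2 and Adamts15 at days 3 and 7, and Adamts12 at day 7. The 3 comparisons share the healthy mice, and the 9 genes were chosen with earlier results of these data known.

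**Figure D1:**
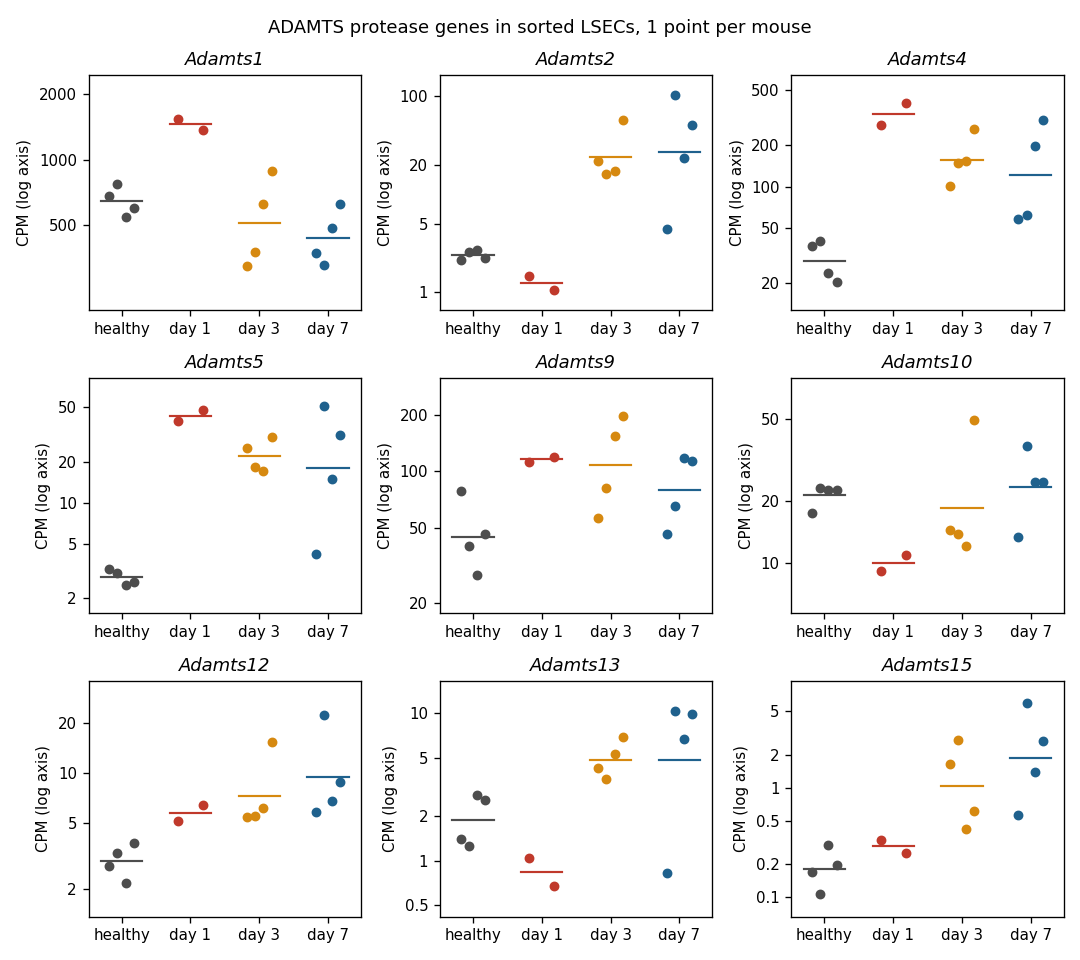
Expression of the 9 ADAMTS genes in each mouse, as CPM on a log axis, for healthy LSECs (n = 4) and LSECs 1 (n = 2), 3 (n = 4) and 7 days (n = 4) after CCl4. Each point is a mouse and each line the geometric mean of the group. Adamts4 and Adamts5 are above all healthy samples at every time, Adamts2 is below them at day 1 and above them at days 3 and 7, and day 7 replicate 1 is the lowest day 7 sample for every gene but Adamts1.

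Levels differed widely between the genes. Per length, Adamts1 was the most abundant in healthy LSECs at 123 ± 19.0 RPKM (CPM divided by the exon length in kilobases, SD, n = 4), followed by Adamts4 (6.31 ± 2.06), Adamts9 (3.21 ± 1.43) and Adamts10 (2.59 ± 0.321). The other 5 genes lay at or under 0.407 RPKM, with Adamts15 lowest at 0.0186 ± 0.00787. In that order the ranges of mean ± SD overlapped between Adamts4 and Adamts9 and between Adamts9 and Adamts10, and likewise from Adamts13 through Adamts12 and Adamts5 to Adamts2. At day 1 the order was led by Adamts1 (274 ± 21.2 RPKM, n = 2) and Adamts4 (70.8 ± 18.3), and at day 7 by Adamts1 (85.2 ± 25.1, n = 4), Adamts4 (32.3 ± 24.6), Adamts9 (5.68 ± 2.33) and Adamts2 (4.85 ± 4.57). At day 7 each gene from Adamts4 downward overlapped its neighbour in mean ± SD. Of the summed RPKM of the 9 genes, Adamts1 held 90.2% on average in healthy LSECs and 76.4%, 66.2% and 64.5% at days 1, 3 and 7, while Adamts4 held 4.56%, 19.8%, 22.5% and 21.2%.

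Adamts4 and Adamts5 are the classical aggrecanases. Changes are given below as log2 fold changes (LFC) with their standard errors (SE). Adamts4 (chromosome 1, 171250421 to 171260637, plus strand, GRCm38) was at 37.1, 40.5, 23.5 and 20.4 CPM in healthy replicates 1 to 4, 278 and 403 CPM at day 1, 102, 148, 153 and 261 CPM at day 3 and 58.4, 62.1, 197 and 304 CPM at day 7. Every injured sample was above every healthy one, and at day 7 replicates 1 and 2 were well below replicates 3 and 4. The LFC was 3.49 at day 1 (SE 0.58, adjusted p = 0.00419), 2.45 at day 3 (0.51, 0.0125) and 2.36 at day 7 (0.50, 0.0261). The call at day 7 was lost when healthy replicate 1, 2 or 3 or day 7 replicate 3 or 4 was left out, with LFCs between 1.80 and 2.53.

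Adamts5 (chromosome 16, 85856173 to 85901828, minus strand) was at 3.28, 3.05, 2.48 and 2.61 CPM in healthy LSECs, 39.5 and 47.4 CPM at day 1, 24.9, 18.1, 17.1 and 30.2 CPM at day 3 and 4.20, 51.1, 14.8 and 31.5 CPM at day 7. Here too no injured sample overlapped the healthy ones, but day 7 replicate 1 came close to them. Adamts5 rose by 3.93 on the log2 scale at day 1 (SE 0.62, adjusted p = 0.00303), 2.98 at day 3 (0.55, 0.00735) and 3.15 at day 7 (0.55, 0.0109). These 3 calls held with any 1 sample left out. Without day 7 replicate 2, the day 7 value was 2.56.

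Adamts1, a neighbour of Adamts5 on the same strand (chromosome 16, 85793827 to 85803113), had no called change against healthy LSECs. It was at 679, 777, 545 and 600.0 CPM in healthy LSECs, 1532 and 1373 CPM at day 1, 327, 378, 625 and 885 CPM at day 3 and 371, 327, 484 and 625 CPM at day 7. Both day 1 samples were above all others of the series, and the later samples, 327 to 885 CPM, spread to both sides of the healthy range. The LFC against healthy was 1.16 at day 1 (SE 0.35, adjusted p = 0.0899), -0.23 at day 3 (0.30, 0.702) and -0.52 at day 7 (0.30, 0.330). DESeq2, limma and a model of only the day 1 and healthy samples called the day 1 value (adjusted p between 0.00341 and 0.0423), and limma also called it lower at day 3 (-0.78, adjusted p = 0.0250).

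Adamts9 (chromosome 6, 92772699 to 92943492, minus strand) had 78.7, 40.1, 28.2 and 46.4 CPM in healthy LSECs, 113 and 119 CPM at day 1, 56.5, 81.7, 155 and 195 CPM at day 3 and 46.2, 65.6, 117 and 113 CPM at day 7. Day 1 was the only time at which every sample was above the healthy range. Day 3 replicates 2 to 4 and day 7 replicates 3 and 4 were above it too, and no value passed the threshold (LFC 1.26, 1.34 and 0.82, adjusted p = 0.184, 0.0733 and 0.273). DESeq2 called it at day 3 and limma at days 1 and 7. Adamts9 shares 1381 exon bases with A730049H05Rik and 424 with Gm15737 on the opposite strand. A730049H05Rik, at 2.49 to 11.4 CPM, was called higher at days 1, 3 and 7 (LFC 1.39, 1.25 and 1.32, adjusted p = 0.0462, 0.0273 and 0.0374). Since the use of strand in counting is not stated, reads of these genes cannot be told apart in the shared bases.

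Adamts15 (chromosome 9, 30899155 to 30922452, minus strand) was the least abundant of the 9 genes, with 9 to 29 counts in a healthy library. It was at 0.170, 0.106, 0.302 and 0.195 CPM in healthy LSECs, 0.335 and 0.253 CPM at day 1, 1.64, 2.74, 0.415 and 0.616 CPM at day 3 and 0.561, 5.90, 1.39 and 2.70 CPM at day 7. All samples of days 3 and 7 were above the healthy ones. Adamts15 rose by 2.79 on the log2 scale at day 3 (SE 0.75, adjusted p = 0.0381) and by 3.76 at day 7 (0.77, 0.0217). The day 3 call was lost in 10 of 14 fits that left out 1 sample, and the day 7 call without healthy replicate 1, 2 or 3 or day 7 replicate 2, where the value without the last was 3.00.

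Adamts2, the procollagen N-proteinase, had the largest change of the 9 genes at day 7. Adamts2 (chromosome 11, 50602084 to 50807573, plus strand) was at 2.13, 2.56, 2.71 and 2.25 CPM in healthy LSECs, 1.48 and 1.06 CPM at day 1, 21.8, 15.9, 17.3 and 57.2 CPM at day 3 and 4.39, 103, 23.5 and 50.4 CPM at day 7. The day 1 samples were below all healthy samples and the later ones above. At day 7, replicate 1 was low and replicate 2 the highest of the series. The LFC was -0.93 at day 1 (SE 0.85, adjusted p = 0.661), 3.54 at day 3 (0.73, 0.0121) and 4.23 at day 7 (0.75, 0.0116). Without day 3 replicate 4 the day 3 value was 2.83, without day 7 replicate 2 the day 7 value was 3.43, and without healthy replicate 1 the day 7 call was lost (4.17, adjusted p = 0.0537).

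Adamts13 (chromosome 2, 26973416 to 27009628, plus strand) was at 1.40, 1.27, 2.79 and 2.56 CPM in healthy LSECs, 1.05 and 0.671 CPM at day 1, 4.23, 3.56, 5.30 and 6.91 CPM at day 3 and 0.821, 10.3, 6.68 and 9.80 CPM at day 7. Day 3 was above and day 1 below all healthy samples, and at day 7 replicate 1 was below them while the other 3 were above. No comparison with healthy LSECs was called (LFC -1.22, 1.32 and 1.78, adjusted p = 0.440, 0.192 and 0.104). Without day 7 replicate 1, the day 7 value was 2.14 and passed the threshold (adjusted p = 0.00881), and DESeq2 and limma called it with all samples (1.80 and 1.92, adjusted p = 0.022 and 0.0176).

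Adamts12 (chromosome 15, 11064790 to 11349231, plus strand) was at 2.76, 3.29, 2.18 and 3.80 CPM in healthy LSECs, 5.13 and 6.44 CPM at day 1, 5.47, 5.53, 6.16 and 15.4 CPM at day 3 and 5.84, 22.3, 6.81 and 8.77 CPM at day 7. Every injured sample was above every healthy one. The LFC was 0.94 at day 1 (SE 0.53, adjusted p = 0.402), 1.43 at day 3 (0.46, 0.0769) and 1.86 at day 7 (0.46, 0.0464). DESeq2 called it at day 3 as well (adjusted p = 0.0227). The day 7 call stood near the threshold and was lost in 12 of 14 fits without 1 sample, with a value of 1.25 without day 7 replicate 2.

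Adamts10 (chromosome 17, 33524204 to 33553782, plus strand) was at 17.4, 23.0, 22.7 and 22.4 CPM in healthy LSECs, 9.09 and 10.9 CPM at day 1, 14.4, 13.8, 12.0 and 49.2 CPM at day 3 and 13.4, 37.0, 24.6 and 24.6 CPM at day 7. Day 1 was below all healthy samples, and 3 of the 4 day 3 samples were also below them while day 3 replicate 4 was the highest sample of the series. It was not called at any time (LFC -1.10, 0.06 and 0.22, adjusted p = 0.314, 0.948 and 0.809), although limma and the model of only the 2 groups called it lower at day 1 (-1.13 and -1.14, adjusted p = 0.00866 and 0.0229).

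**Figure D2:**
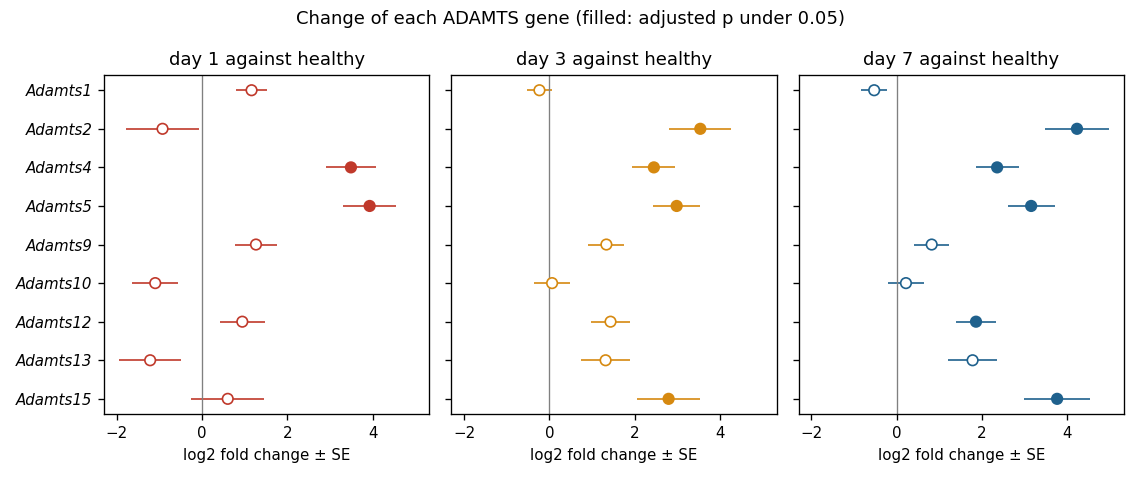
Log2 fold change of each gene at days 1, 3 and 7 against healthy LSECs, with bars of 1 standard error (SE) from edgeR's fit over 14 samples. Filled points passed an adjusted p of 0.05: Adamts4 and Adamts5 in all 3 panels, Adamts2 and Adamts15 at days 3 and 7, and Adamts12 at day 7.

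Between the samples of a day and the healthy samples there was no overlap for 8 of the 9 genes at day 1 (5 higher, 3 lower), 6 at day 3 and 5 at day 7, where all were higher. With 2 samples against 4, 37.9% of all tested genes did not overlap at day 1, and 14.4% and 20.8% did not at days 3 and 7. The 3 genes with both day 1 samples below the healthy range were Adamts2, Adamts10 and Adamts13, none of which was called there. Leaving out 1 sample moved the number of genes called at day 7 to between 1 and 6, with 1 called without healthy replicate 1, 2 without healthy replicate 2 or 3, and 3 without day 7 replicate 2, 3 or 4.

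The days after injury were also compared with each other. Day 3 differed from day 1 in 1 of the 9 genes, Adamts2, which was 4.46 higher on the log2 scale (SE 1.03, adjusted p = 0.0368), where 2.54% of all tested genes were called. That call was lost without either day 1 sample and in 7 other fits with 1 sample left out. Day 7 differed from day 1 in 3 genes, against 8.04% of all genes. Adamts2 was higher by 5.15 (SE 1.07, adjusted p = 0.0122) and Adamts13 by 3.00 (0.81, 0.0384), and Adamts1 was lower by an LFC of -1.68 (0.35, 0.0123). Each of these calls was lost when either day 1 sample was left out, and that of Adamts13 also without day 3 replicate 3 or day 7 replicate 2, 3 or 4. Without day 7 replicate 2 the value of Adamts2 was 4.36, and without day 3 replicate 4 it was 3.78 at day 3 against day 1. Adamts13 overlapped between the 2 days, as day 7 replicate 1 (0.821 CPM) lay between the day 1 samples. Between days 7 and 3, edgeR called none of the 9 genes, none had an unadjusted p under 0.05, and limma called 1, Adamts10. Of all genes, edgeR called 1.77% there and limma 6002 of 26626. For Adamts4 and Adamts5, all day 3 samples were below the day 1 samples, and the difference did not pass the test (LFC -1.04 and -0.94, adjusted p = 0.400 and 0.484).

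The 250 bases upstream of the annotated start are shown for Adamts1, whose level was highest at day 1, and for Adamts2 and Adamts13, which were low at day 1 and varied together over the 14 samples. The windows are from RefSeq on GRCm38.p6, in the direction of the gene, at chr16:85803114-85803363 on the minus strand, chr11:50601835-50602084 on the plus strand and chr2:26973166-26973415 on the plus strand. The table used held windows for 5 of the 9 genes, and entries for Adamts4, Adamts5, Adamts10 and Adamts15 were missing. Capitals mark matches on either strand to 6 motifs, namely the TATA box (TATAAA), the AP-1 motif (its 7 letters are TGANTCA), the GC box (GGGCGG), an E-box (CACGTG), the RUNX motif (TGTGGT) and the SMAD element (GTCTAGAC), and no matches overlapped.
Adamts1: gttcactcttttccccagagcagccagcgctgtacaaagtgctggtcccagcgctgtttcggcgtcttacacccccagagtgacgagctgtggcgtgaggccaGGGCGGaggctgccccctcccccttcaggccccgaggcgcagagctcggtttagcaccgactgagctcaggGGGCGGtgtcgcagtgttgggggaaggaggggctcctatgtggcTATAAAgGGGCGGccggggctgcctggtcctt
Adamts2: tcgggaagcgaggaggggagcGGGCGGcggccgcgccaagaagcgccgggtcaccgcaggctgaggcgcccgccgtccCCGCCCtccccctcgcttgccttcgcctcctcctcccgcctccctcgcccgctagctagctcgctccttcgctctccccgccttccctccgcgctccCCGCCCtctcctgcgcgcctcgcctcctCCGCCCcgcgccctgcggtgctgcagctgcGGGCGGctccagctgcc
Adamts13: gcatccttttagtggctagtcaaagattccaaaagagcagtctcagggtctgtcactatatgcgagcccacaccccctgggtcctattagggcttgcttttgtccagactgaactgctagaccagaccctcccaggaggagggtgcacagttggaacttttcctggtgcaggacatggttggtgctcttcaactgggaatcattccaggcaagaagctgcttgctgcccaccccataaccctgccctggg
The Adamts1 window held 1 TATAAA, from 32 to 27 bases before the start, and 3 matches to GGGCGG. Adamts2 held 5 matches to GGGCGG and none to the other motifs, and Adamts13 held none of the 6. Of 32851 windows of the same length, 12.4% held TATAAA, 6.75% TGANTCA, 32.7% GGGCGG, 6.02% CACGTG, 14.05% TGTGGT and 0.167% GTCTAGAC. G and C made up 65.6% of the Adamts1 window, 78% of the Adamts2 window and 54% of the Adamts13 window, against a median of 52.4% over all windows, and CG dinucleotides numbered 15, 34 and 1 against a median of 6.

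Levels of other cells' markers moved with some of the 9 genes. Across the 14 samples, Adamts2 had a Pearson r of 0.99 with the summed myofibroblast and fibroblast markers and 0.94 with the stellate cell markers on the log2 scale. For Adamts13 these were 0.86 and 0.90, for Adamts15 0.87 and 0.83 and for Adamts12 0.81 and 0.80. Adamts4 (0.32 and 0.29), Adamts9 (0.37 and 0.32), Adamts10 (0.52 and 0.62), Adamts5 (0.54 and 0.56) and Adamts1 (-0.56 and -0.44) had lower values. With the cholangiocyte markers r was 0.84 for Adamts15, 0.66 for Adamts12, 0.64 for Adamts2 and -0.66 for Adamts1, and with the hepatocyte markers it was -0.68 for Adamts1 and at most 0.56 for the others. With the LSEC markers themselves r was -0.83 for Adamts15, -0.75 for Adamts5, -0.71 for Adamts12, -0.67 for Adamts2, -0.51 for Adamts13 and -0.50 for Adamts4. With markers of other endothelial cells, Kupffer cells and lymphocytes the values lay between -0.55 and 0.56. The points share group means and libraries, so the values are descriptions. At day 1 Adamts4 and Adamts5 had their highest group means. The fibroblast and stellate cell marker sums were then within or below the healthy range, at 34.5 and 58.1 CPM and at 261 and 296 CPM. Above it were the sums of monocytes and neutrophils, of other endothelial cells (1470 and 2108 CPM, healthy 998 to 1064 CPM) and of cholangiocytes. The sums of LSECs and hepatocytes were below it. None of the 5 cholangiocyte and 8 other endothelial markers was called at day 1, with median LFCs of -0.49 and 0.20. In day 7 replicate 2, which had the highest fibroblast sum of the series (5813 CPM), Adamts2 and Adamts5 were at their highest, 103 and 51.1 CPM, and Adamts4 was at 62.1 CPM. In day 7 replicate 1, with a fibroblast sum of 280 CPM, Adamts2 was at 4.39, Adamts5 at 4.20 and Adamts4 at 58.4 CPM. At day 3, 9 of the 11 fibroblast markers and 5 of the 12 stellate cell markers were called higher, and at day 7 9 and 7 were. The part of fibroblasts and stellate cells in the changes of any of the 9 genes was not tested. For the monocyte and neutrophil markers r was 0.70 with Adamts15, 0.64 with Adamts5 and 0.52 with Adamts4. The part of these, of the other endothelial, hepatocyte and cholangiocyte markers and of the lower LSEC markers was not tested either. Without healthy replicate 4, the library with the high hepatocyte sum, 2, 3 and 4 of the 9 genes were called at days 1, 3 and 7, and the calls of Adamts15 at day 3 and Adamts12 at day 7 were lost. Over all 26477 genes of that fit, 734, 1173 and 962 were called.

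**Figure D3:**
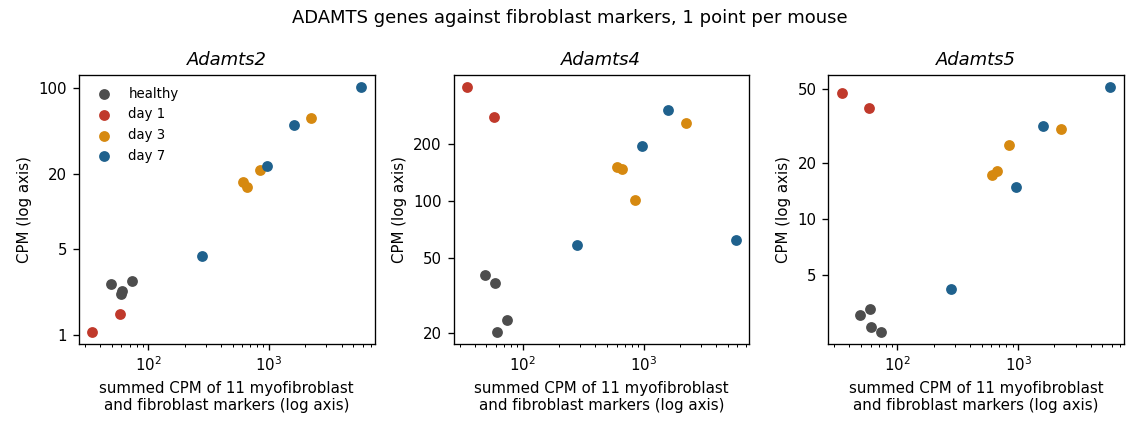
CPM of Adamts2, Adamts4 and Adamts5 in each of 14 mice against the summed CPM of 11 myofibroblast and fibroblast markers, both on log axes, coloured by group. Adamts2 lies along 1 line through all groups (r = 0.99), while the day 1 samples of Adamts4 and Adamts5 are high at marker sums of 34.5 and 58.1 CPM.

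The genes most like each member in log2 CPM over the 14 samples were sought among 11712 protein-coding genes. For Adamts2 they were the platelet-derived growth factor receptor gene Pdgfrb (r = 0.991), the transcription factor gene Foxf1 (0.984) and the collagen gene Col5a2 (0.983), and for Adamts13 the transcription factor gene Tcf21 (0.961), the parathyroid hormone receptor gene Pth1r (0.945) and the laminin gene Lamb1 (0.939). Adamts5 was nearest to Fblim1 (0.950), the hepatocyte growth factor gene Hgf (0.941) and C1qtnf6 (0.941). Adamts1 was nearest to Rasip1 (0.955), a regulator of endothelial junctions, with Mdm2 (0.951) and Cdc42ep4 (0.945), and Adamts4 to Dusp16 (0.939), Tecpr2 (0.909) and Heg1 (0.889). For the others the first was Fbxl22 with Adamts9 (0.938), Plcd3 with Adamts10 (0.930), Nradd with Adamts12 (0.917) and Sparcl1 with Adamts15 (0.938). Among the 9 genes themselves, r was highest between Adamts2 and Adamts13 (0.910), Adamts4 and Adamts5 (0.843) and Adamts4 and Adamts9 (0.840), and lowest between Adamts1 and Adamts15 (-0.61).

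The 10 other ADAMTS proteases of the mouse were mostly at low levels. Of these, 8 were tested and none was called against healthy LSECs at any time by edgeR. Adamts7, which cleaves cartilage oligomeric matrix protein, was at 14.1 to 41.0 CPM in all 14 samples (LFC 0.20, 0.46 and 0.50 at days 1, 3 and 7, adjusted p = 0.856, 0.385 and 0.334). Adamts14, another procollagen N-proteinase, ranged over 0.355 to 2.26 CPM in healthy LSECs, 0.407 and 0.586 (day 1), 1.92 to 10.1 (day 3) and 0.665 to 5.20 CPM (day 7) (LFC -1.34, 1.92 and 1.33, adjusted p = 0.474, 0.108 and 0.267). Of 7 ADAMTS-like proteins, relatives without a protease domain, 1 was called higher at day 1, 1 at day 3 and 3 at day 7. Adamtsl4 was higher at day 1 (LFC 2.37, adjusted p = 0.0395). Adamtsl2, which binds latent TGF-beta binding protein, was higher at day 3 (3.34, adjusted p = 0.0138) and day 7 (2.90, 0.0405), where Adamtsl1 (2.75, 0.0296) and Adamtsl5 (2.51, 0.0222) were also higher.

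Among 14 proteoglycans and other substrates of the aggrecanase group, 1 was called higher at day 1, 5 at day 3 and 4 at day 7, and none lower. Vcan, the gene of versican, was at 0.110, 0.164, 0.166 and 0.172 CPM in healthy LSECs, 58.6 and 24.5 CPM at day 1, 12.0, 19.6, 2.69 and 3.14 CPM at day 3 and 7.15, 15.3, 2.43 and 4.27 CPM at day 7. All injured samples were far above the healthy ones, with LFCs of 8.07 (SE 0.91, adjusted p = 0.000338), 5.92 (0.81, 0.00192) and 5.56 (0.79, 0.00481). Monocyte and neutrophil marker sums were 13496 and 8230 CPM in day 3 replicates 1 and 2 and 1560 and 1431 CPM in replicates 3 and 4. Day 7 replicate 3 had the lowest Vcan of the injured samples beside a sum of 9422 CPM. The part of these cells in the Vcan values was not tested. Acan, the gene of aggrecan, had 0 to 3 counts in a healthy library and at most 0.306 CPM in any sample, and no change was detectable at this depth (adjusted p = 0.904, 0.477 and 0.629). The small proteoglycan genes Lum (LFC 3.44 and 3.81, adjusted p = 0.00603 and 0.00779) and Dcn (2.07 and 2.57, 0.0482 and 0.0367) and the matrix glycoprotein gene Reln (2.69 and 3.68, 0.0166 and 0.00961) were higher at days 3 and 7, and the syndecan gene Sdc4 at day 3 (1.00, 0.0339).

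Of 8 tested genes of fibrillar procollagens and their processing, the substrates and partners of Adamts2, none was called at day 1, 6 were higher at day 3 and 5 at day 7. Col1a1 rose by 5.90 on the log2 scale at day 3 (SE 1.16, adjusted p = 0.00971) and 7.34 at day 7 (1.24, 0.00961), Col1a2 by 4.88 and 6.14 (adjusted p = 0.00764 and 0.00752), and Col3a1 by 4.55 and 5.70 (0.00817 and 0.00779). Col5a1 was also higher at both times (4.00 and 5.21, 0.00484 and 0.00481), and Pcolce, which enhances procollagen processing, at day 3 (1.20, 0.00699). Col1a1 was at 21.3, 1214, 174 and 260 CPM in day 7 replicates 1 to 4, the same order of samples as Adamts2. Col1a1, Col1a2, Col3a1 and Lum are also 4 of the 11 fibroblast markers. Of 11 microfibril genes, Fbn1, the gene of fibrillin-1, was higher at days 3 (LFC 2.35, adjusted p = 0.0125) and 7 (2.62, 0.0145), as was Mfap2 (3.31 and 4.53, 0.00773 and 0.00481), and none was called at day 1.

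Vwf, the substrate of ADAMTS13, was at 5.22, 7.37, 12.3 and 8.29 CPM in healthy LSECs, 16.8 and 14.6 CPM at day 1, 37.2, 109, 11.4 and 13.1 CPM at day 3 and 7.90, 29.5, 23.0 and 22.3 CPM at day 7. It passed the test at day 3 (LFC 2.36, SE 0.64, adjusted p = 0.0413) but not at days 1 and 7 (0.92 and 1.32, adjusted p = 0.587 and 0.244), and day 3 replicate 2 was far above the other samples while replicate 3 lay in the healthy range. F8, coagulation factor VIII, which circulates bound to von Willebrand factor, was lower at day 1 (LFC -1.01, adjusted p = 0.0429) and day 3 (-1.41, 0.00229). Selp, the P-selectin gene, was higher at both times (3.25 and 2.39, adjusted p = 0.00798 and 0.0167).

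Of 13 genes of inhibition, activation and clearance, 3 were called higher at day 1, 4 higher and 1 lower at day 3 and 3 higher at day 7. Timp3 was at 647, 619, 797 and 658 CPM in healthy LSECs, 1582 and 1542 CPM at day 1, 325, 358, 495 and 528 CPM at day 3 and 615, 489, 479 and 688 CPM at day 7. It was above all healthy samples at day 1 (LFC 1.20, SE 0.23, adjusted p = 0.0101) and below them at day 3, where the test was not passed (-0.67, 0.20, 0.0547). Timp1, a broad inhibitor of metalloproteinases, was higher at days 1, 3 and 7 by 5.01, 4.24 and 4.60 on the log2 scale (adjusted p = 0.00128, 0.00271 and 0.00481). Thbs1, the gene of thrombospondin-1, followed with 4.63, 3.35 and 2.84 (0.000931, 0.00423 and 0.0148), and Lrp1 was higher at days 3 and 7 (2.72 and 2.68, 0.0110 and 0.0207). The protease inhibitor gene A2m was higher (3.24, 0.0220) and the convertase gene Pcsk7 lower (-0.99, 0.0364) at day 3.

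**Figure D4:**
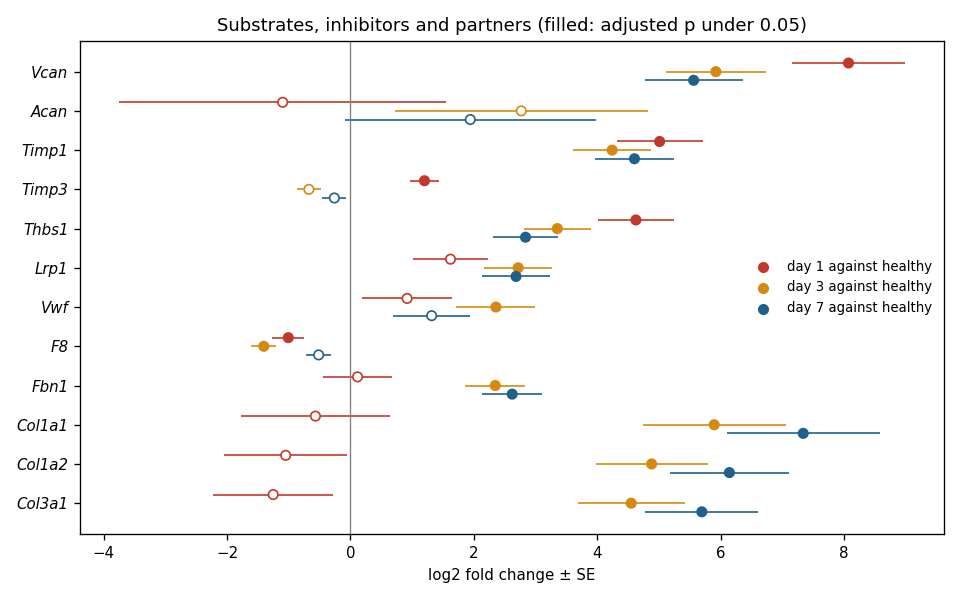
Log2 fold change with 1 standard error of substrates, inhibitors and partners of the ADAMTS proteases at days 1, 3 and 7 against healthy LSECs. Filled points passed an adjusted p of 0.05. Vcan, Timp1 and Thbs1 were higher at all 3 times, and the collagen genes and Fbn1 at days 3 and 7 only in this test.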

How the data were processed

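The authors amplified the RNA of sorted LSECs with a low-input kit, sequenced it, mapped reads with STAR to GRCm38, ran StringTie, and deposited per Ensembl gene a whole-number count that was not normalized. The annotation release, the use of strand and tool versions are not given in the sources used here, and the sequencing is described both as paired-end and as single-end. Names, positions and exon lengths came from GENCODE vM21 (54495 of 54524 genes found). Genes were filtered with filterByExpr (minimum count 10, total 15, by group), scaled by TMM and tested with edgeR 4.0.16 (R 4.3.3) in 1 quasi-likelihood model of 4 group means over 14 samples, with Benjamini-Hochberg adjustment over 26626 genes and a threshold of 0.05. The standard error is the absolute log2 fold change over the square root of F. CPM uses TMM-scaled totals and log2 CPM a prior count of 2. Alternatives were DESeq2 1.42.0, limma 3.58.1, other scalings, filters, models and thresholds, and leaving out each sample. The limma fit used voom with sample quality weights, so the mice did not all count equally in it. The edgeR step was tested on simulated data. Groups came from the sample labels, and p-values measure the spread between these mice. Counting error (a floor of 3 counts) is the only error that depth covers.

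The 9 genes and all lists were chosen with earlier results of these data known. Named were the 9 genes, up to 4 called genes of each list per comparison with healthy LSECs by smallest adjusted p, 10 fixed partners, and the 3 protein-coding genes of mean log2 CPM of at least 1 with the highest r. Pcsk7, cell marker and overlapping genes outside this rule were added after their values were seen. A result that needs a withheld gene is not reported here.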

Additional observations from a re-analysis of the deposited data

Results flagged for a closer look

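In 27 groups of 4 samples tested, 4 had a sample whose gap to its nearest neighbour took up more of the range of the group than the limit of Dixon's test allows, which chance passes in about 1 of 20 groups. Day 3 replicate 4 was high for Adamts2 (0.856 of the range), Adamts10 (0.938) and Adamts12 (0.930), and healthy replicate 1 was low for Adamts10 (0.890). The 3 day 3 values come from the same mouse, in which the fibroblast marker sum was 2246 CPM against 607 to 848 CPM in the other day 3 mice.

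In 4 cases the change from healthy differed between 2 days by edgeR's test of that difference. On the log2 scale, Adamts2 was 4.46 higher at day 3 than at day 1, and at day 7 against day 1 Adamts2 was 5.15 higher, Adamts13 3.00 higher and Adamts1 different by -1.68. The first rests on 2 day 1 mice, as do the others.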

How the results depend on the processing

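Over 9 genes and 6 comparisons, 386 of 432 values under another setting kept their direction and their side of the threshold, 22 newly passed it, 12 no longer did and 12 changed sign. With 1 sample left out these numbers were 674 of 756, 9, 51 and 22. None of the values that changed sign was called by edgeR with all samples.

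The number of genes called at day 1 was 5 with limma (over all genes 4308 of 26626) and 4 with a model of the 2 groups (2327 of 22771). At a threshold of 0.01 it was 1 at day 3, and 0 at day 7, for day 3 against day 1 and for day 7 against day 1. Day 3 against day 1 gave 2 genes without a filter, 3 with DESeq2, 2 with limma, 0 with 2 groups and 2 at a threshold of 0.10. Over all genes, 527 of 44622 were called there without a filter, 2306 of 54524 with DESeq2, 3344 of 26626 with limma and 189 of 24788 with 2 groups. Limma called 1 gene between days 7 and 3 and 5 between days 7 and 1, where it called 6002 and 7610 of 26626 in all. Leaving out 1 sample gave 1 to 6 genes at day 7, 0 to 2 for day 3 against day 1 and 0 to 5 for day 7 against day 1.

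Sign changes were seen for Adamts10 at day 3 against healthy (-0.13 without a filter, -0.60 with limma, -0.00122 with 2 groups), for day 3 against day 1 in Adamts9 (-0.0459 without a filter, -0.57 with limma) and Adamts12 (-0.00165 with limma), and for day 7 against day 3 with limma in Adamts1 (0.30), Adamts4 (0.25) and Adamts9 (0.23). Without 1 sample, the log2 fold change ranged from -0.77 to 0.27 (day 3) and -0.0343 to 0.42 (day 7) for Adamts10 against healthy, and for day 3 against day 1 from -0.29 to 0.29 for Adamts9 and -0.0803 to 0.67 for Adamts12. For day 7 against day 3 it ranged from -0.42 to 0.0943 for Adamts1, -0.10 to 1.40 for Adamts2, -0.55 to 0.27 for Adamts4, -0.42 to 0.65 for Adamts5, -0.0992 to 0.98 for Adamts10 and -0.19 to 1.03 for Adamts12. The cause was not tested.

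Replicate numbers are shared between groups, but the correlations of same-numbered deviations (18 pairs, 0 over 0.1) gave no sign that they pair mice. With the replicate block, 2 genes were called at day 7, and the sign changed for Adamts10 at day 3 against healthy (-0.12), Adamts9 at day 3 against day 1 (-0.32) and Adamts5 at day 7 against day 3 (-0.0265). Over all genes, the calls against healthy at days 1, 3 and 7 ranged from 164 to 4308, 946 to 7265 and 193 to 7047 over the alternatives. The share of calls that were higher was 64.2% (day 3) and 68.8% (day 7), and over the other settings with all samples it ranged from 47.3% (no filter) to 75.1% and from 46.0% (model of 2 groups) to 86.8%, both highest with library size as the only scaling. Values at day 1 rest on 2 mice.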
